A study of Mus musculus with 18 samples.

Results

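Expression of 10 genes seldom discussed in CD8 T cells was followed across 18 Affymetrix mouse arrays: Pros1, Tafa3, Metrnl, Prnp, Treml2, Frmd4b, Baiap3, Spsb1, Cbr3 and Ncoa7. They were chosen by their large rises in log2 value with IL-4 on these same arrays, in naive or memory cells, with no stated threshold, so their IL-4 rises are given as a description and carry no test. The question asked of them was which were also high in freshly sorted cells and lost in culture without IL-4. The 10 genes are 10 of 18194 genes on the arrays with a symbol of their own, and they have 24 of the 45101 probe sets. All 10 passed the filter on low values through the probe set that stands for the gene, and 19 of their 24 probe sets passed it.

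RNA came from CD8 T cells of F5 mice on the C57Bl/6 background, which carry a transgenic T cell receptor, so that the sorted cells share 1 antigen specificity. Naive cells and memory cells (named TIM in the labels) were sorted from spleen. The memory cells were induced by immunisation with the NP68 peptide, not by an infection, and were taken on day 45. Naive cells spent 20 hours in culture with both IL-4 and IL-7 or with IL-7, or were taken ex vivo, on 2 arrays a group. Memory cells spent 20 hours with both cytokines, with IL-4, with IL-7 or in medium alone, on 2 arrays a group, or were taken ex vivo on 4 arrays. IL-4 was used at 20 ng/mL and IL-7 at 10 ng/mL. The values are log2 RMA values, so a difference of 1 is 2-fold signal, and the level of one gene cannot be set against that of another. Only the ex vivo arrays are titled biological replicates, so a p-value speaks of the spread among these arrays and of no further cell population. In such bulk samples, fewer cells of a type and less RNA per cell cannot be told apart.

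IL-4 binds a receptor made of the IL-4 receptor alpha chain and the common gamma chain, and Janus kinases bound to it phosphorylate STAT6, which enters the nucleus and binds palindromic sites. IL-7 uses the same common gamma chain with its own alpha chain and acts mainly through STAT5, and it keeps naive and memory T cells alive. In T cells IL-4 is best known for T helper 2 differentiation, while in CD8 T cells it is known to raise Eomes and to favour memory-like cells.

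The label of 1 array went against its values. The array labelled medium, replicate 2, had a Pearson correlation across genes of 0.995 with ex vivo memory array 2, against 0.956 with the other medium array. For each of the 6 genes that fell in memory cells with IL-7 its value lay closer to the ex vivo mean than to the other medium array. It is therefore named throughout, and each result that rests on medium is given with and without it. The 3' minus 5' difference of the Gapdh control probe sets, a measure of how complete the RNA is, was 2.67 to 3.36 (log2) on the other 11 cultured arrays, 2.35 on that array and 2.07 to 2.69 on the 6 ex vivo arrays. This difference moves with the culture comparisons, and its part in them was not tested. The CD8 T cell markers averaged 11.37 to 11.98 (log2) on every array, 7 of 8 of them being on the array.

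The promoters are shown first because the 10 genes were chosen for a shared response to a cytokine. RefSeq (assembly GRCm38.p6) gives 12 promoter windows for 9 of the genes, each from 250 bases before to 50 bases after a transcription start. The palindrome TTCNNNNGAA, the spacing that STAT6 is known to prefer, was found in 2 of the 12 windows, 1 of Pros1 and 1 of Ncoa7, and in 6.95% of all 32851 promoters of the same length. TTCNNNGAA, the spacing bound by STAT5 and other STAT proteins, was found in 2 of the 12 windows, 1 of Pros1 and 1 of Tafa3, and in 8.3% of all promoters. Each motif reads the same on both strands, and the matches to them did not overlap. The first 3 sequences below are the windows with a match, in capitals. The last one is the first of 3 windows of Frmd4b, the gene that fell most in culture, and holds neither motif. A match is only a description of the letters, and the other windows without one say nothing about the factors.
Pros1, chr16:62854057-62854356, plus strand: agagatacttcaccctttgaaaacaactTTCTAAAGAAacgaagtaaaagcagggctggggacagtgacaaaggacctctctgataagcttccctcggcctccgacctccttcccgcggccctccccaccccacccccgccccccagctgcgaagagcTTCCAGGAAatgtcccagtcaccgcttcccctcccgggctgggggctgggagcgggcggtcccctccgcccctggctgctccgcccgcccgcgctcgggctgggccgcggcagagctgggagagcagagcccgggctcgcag
Ncoa7, second start, chr10:30655818-30656117, minus strand: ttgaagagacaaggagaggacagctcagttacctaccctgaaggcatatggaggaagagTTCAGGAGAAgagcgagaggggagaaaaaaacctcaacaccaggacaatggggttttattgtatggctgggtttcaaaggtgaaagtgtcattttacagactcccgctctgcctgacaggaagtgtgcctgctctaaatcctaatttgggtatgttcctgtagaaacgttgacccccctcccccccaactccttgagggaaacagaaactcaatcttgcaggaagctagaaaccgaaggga
Tafa3, chr3:104777498-104777797, minus strand: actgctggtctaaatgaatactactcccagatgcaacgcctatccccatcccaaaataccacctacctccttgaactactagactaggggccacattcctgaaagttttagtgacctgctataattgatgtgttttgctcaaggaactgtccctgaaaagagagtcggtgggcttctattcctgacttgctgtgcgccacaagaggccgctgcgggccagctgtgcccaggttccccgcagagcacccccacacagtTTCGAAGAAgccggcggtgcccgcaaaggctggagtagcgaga
Frmd4b, first start, chr6:97617608-97617907, minus strand: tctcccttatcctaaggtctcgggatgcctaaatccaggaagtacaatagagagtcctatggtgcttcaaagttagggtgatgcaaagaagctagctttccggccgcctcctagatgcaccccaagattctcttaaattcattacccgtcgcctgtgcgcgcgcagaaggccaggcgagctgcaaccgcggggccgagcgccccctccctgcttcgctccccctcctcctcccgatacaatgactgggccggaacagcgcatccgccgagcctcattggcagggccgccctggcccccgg
The Pros1 window holds TTCTAAAGAA at 222 bases and TTCCAGGAA at 92 bases before the start. In Ncoa7 the match TTCAGGAGAA lies 191 bases before the second start. In Tafa3 the match TTCGAAGAA lies just after the start, within the transcribed part.

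Frmd4b, Spsb1 and Baiap3 were the genes that were high ex vivo, fell in culture with IL-7 in both naive and memory cells, and stood at or above their ex vivo level with IL-4. Treml2, Metrnl and Cbr3 did the same in memory cells, with falls of -1.5, -1.38 and -0.78. High ex vivo means here only a group mean above the value of the filter on low values. All 10 genes met this in both cell types, so the falls decide the grouping. Of the log2 rise with IL-4 over IL-7 alone, memory cells ex vivo stood at 33.7% for Metrnl and 14.6% for Cbr3, against 58.6% for Treml2. The Treml2 share depends on the probe set, as given below. Pros1, Tafa3, Ncoa7 and Prnp showed no fall that passed in either cell type: they were already low ex vivo relative to their level with IL-4. In naive cells Metrnl went the other way and was higher with IL-7 than ex vivo. The plot of every array shows these patterns gene by gene.

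**Figure D1:**
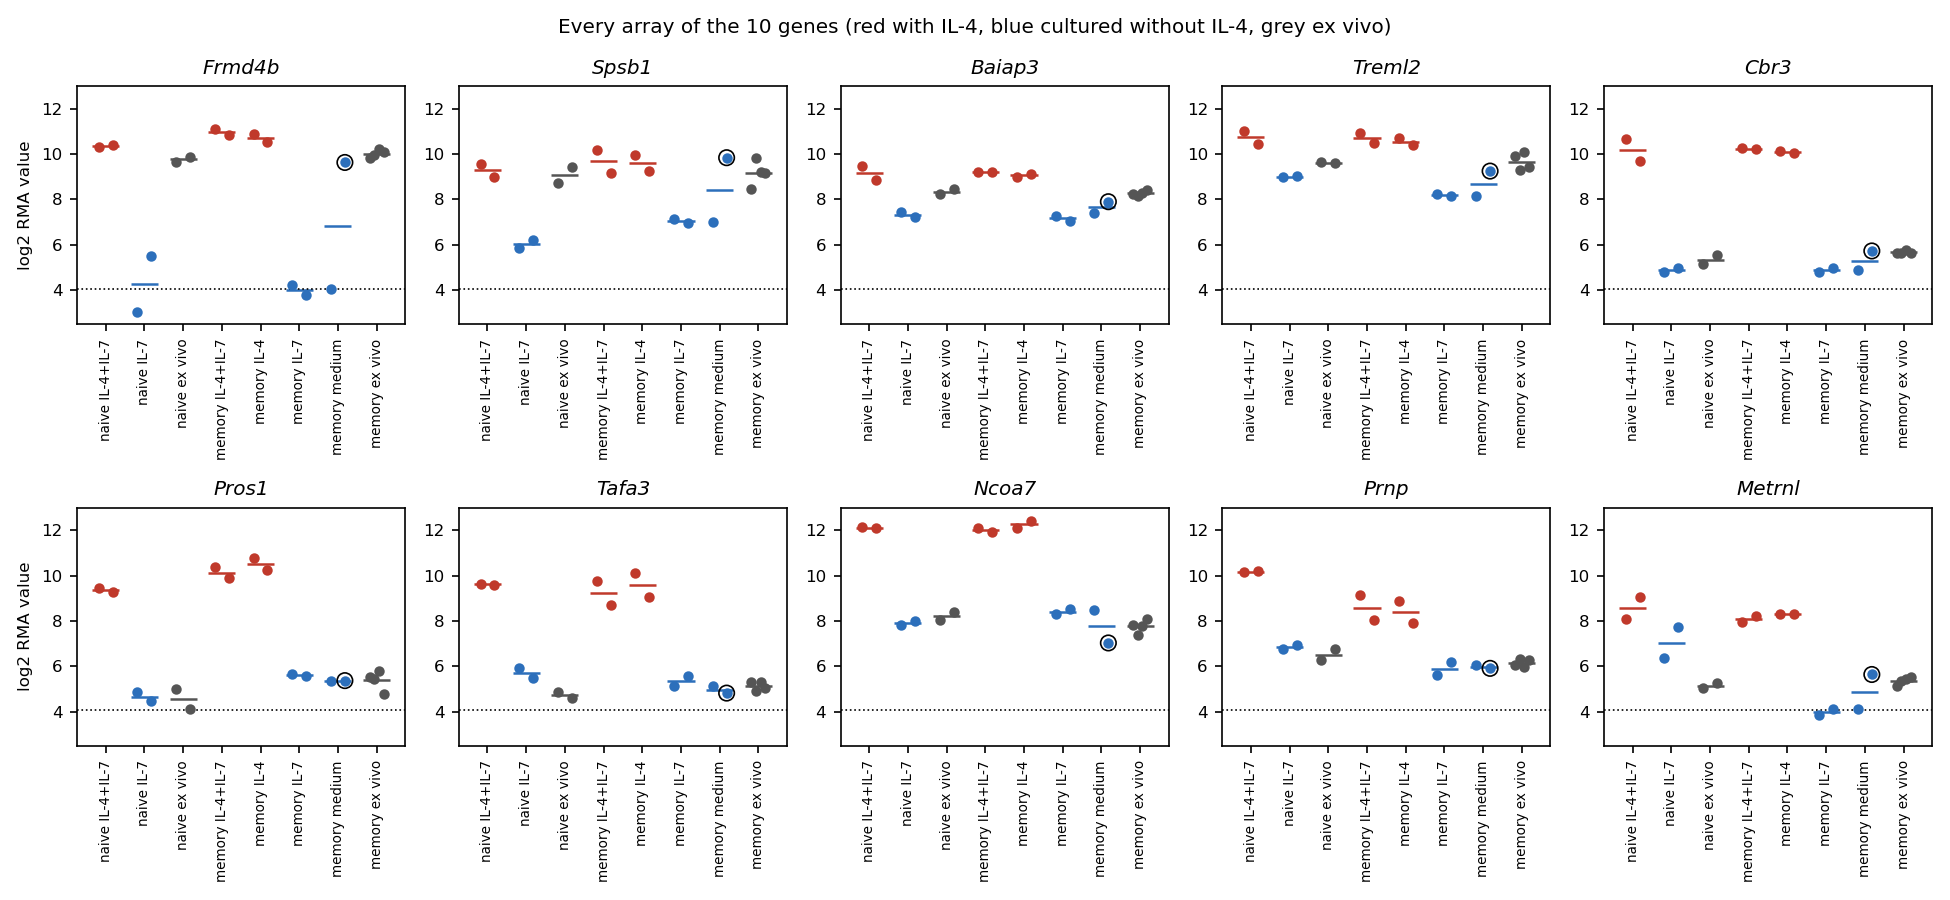
Log2 RMA values of the 10 genes on each of the 18 arrays. Points are arrays, bars are group means, colours mark IL-4 (red), culture without IL-4 (blue) and ex vivo (grey), the black ring marks the array labelled medium, replicate 2, and the dotted line is the filter value of 4.06. In Frmd4b the blue points lie between 3.06 and 5.49 except for the ringed one at 9.63.

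The tests come from a single limma model of the 8 groups, with Benjamini-Hochberg adjustment over all 13770 genes tested and a threshold of 0.05. In naive cells, IL-7 culture against ex vivo, 3 of the 10 genes were lower, 1 was higher and 6 did not pass. Of all genes tested, 12.8% passed in this comparison, 5.80% lower and 7.00% higher. The median change of the 10 genes was -0.38, against 0.07 for all genes. In memory cells, IL-7 culture against ex vivo, 6 of the 10 were lower and 4 did not pass, where 19.9% of all genes passed, 8.85% lower and 11.1% higher. Their median change was -0.95, against -0.05 for all genes. The cultured arrays without IL-4 are also the ones against which the IL-4 rise was measured when the genes were picked, so a low value there favoured being picked, and these counts are not independent of the choice.

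In medium alone, 0 of the 10 genes and 0 of all genes (0%) passed against ex vivo memory cells by limma, although 1364 genes and 3 of the 10 had an unadjusted p under 0.05. Those 3 were Frmd4b, Baiap3 and Treml2, each with an adjusted p of 0.475. Without the array labelled medium, replicate 2, 5 of the 10 were lower and 1 was higher, where 16.4% of all genes passed, 5.61% lower and 10.8% higher. That fit leaves 1 array in medium, whose spread is taken from the other groups. The 5 lower genes were Frmd4b, Spsb1, Treml2, Metrnl and Baiap3, and the higher one was Ncoa7.

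**Figure D2:**
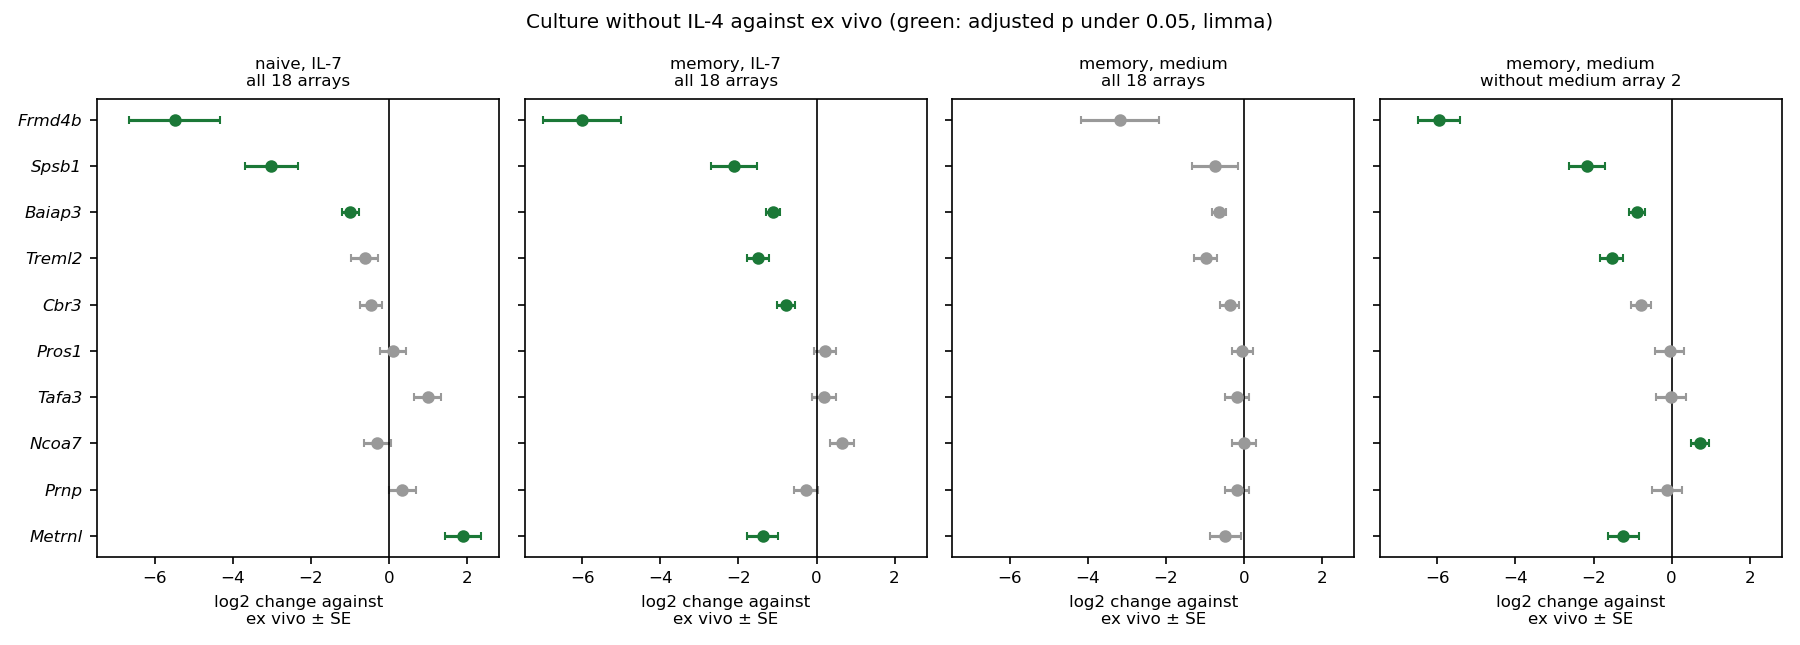
Log2 change of each gene in culture without IL-4 against ex vivo cells of the same type, with its standard error from limma. Green marks an adjusted p under 0.05. The changes of Frmd4b are -5.49 in naive and -6.01 in memory cells with IL-7, -3.18 in medium, and -5.96 in medium without the array labelled medium, replicate 2.

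Of the 10 genes, 3 encode secreted proteins. Pros1 encodes protein S, a vitamin K dependent anticoagulant of plasma and a ligand of the receptor kinases Tyro3 and Mertk. In naive cells its values were 9.46 and 9.28 with IL-4 and IL-7, 4.85 and 4.46 with IL-7, and 5.02 and 4.10 ex vivo. For memory cells the values were 10.38 and 9.89 with IL-4 and IL-7, 10.76 and 10.26 with IL-4, 5.67 and 5.56 with IL-7, 5.35 and 5.37 in medium, and 5.51, 5.46, 5.81 and 4.80 ex vivo. Every array with IL-4 lay far above every array without it, and cultured cells without IL-4 overlapped with ex vivo cells. Pros1 thus differed by 0.10 ± 0.33 (SE) in naive cells with IL-7 against ex vivo (adjusted p = 0.901, limma) and by 0.22 ± 0.28 in memory cells (adjusted p = 0.613).

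Tafa3 encodes a small secreted protein of a family related to chemokines. Its values in naive cells were 9.62 and 9.60 with IL-4 and IL-7, 5.94 and 5.50 with IL-7, and 4.88 and 4.59 ex vivo. The memory arrays read 9.74 and 8.70 with IL-4 and IL-7, 10.12 and 9.06 with IL-4, 5.12 and 5.56 with IL-7, 5.13 and 4.82 in medium, and 5.33, 4.92, 5.31 and 5.05 ex vivo. The arrays with IL-4 were all high, and in naive cells both IL-7 arrays lay above both ex vivo arrays. That naive difference was 0.99 ± 0.35 (SE) and missed the threshold (adjusted p = 0.0775, limma), and the memory difference was 0.19 ± 0.30 (adjusted p = 0.694). With the naive groups fitted alone, the naive difference passed (adjusted p = 0.028).

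Metrnl encodes meteorin-like, a secreted factor made by muscle, fat and macrophages. In naive cells its values were 8.09 and 9.06 with IL-4 and IL-7, 6.35 and 7.73 with IL-7, and 5.04 and 5.25 ex vivo. Memory cells had values of 7.95 and 8.21 with IL-4 and IL-7, 8.31 and 8.32 with IL-4, 3.85 and 4.12 with IL-7, 4.12 and 5.64 in medium, and 5.15, 5.34, 5.46 and 5.51 ex vivo. The 2 cell types moved in opposite directions: both naive IL-7 arrays lay above both naive ex vivo arrays, and both memory IL-7 arrays lay below all 4 memory ex vivo arrays. Metrnl was higher by 1.90 ± 0.46 (SE) in naive cells with IL-7 than ex vivo (adjusted p = 0.0173, limma) and fell by 1.38 ± 0.39 in memory cells (change -1.38, adjusted p = 0.026). The difference between the 2 culture effects, memory minus naive, was -3.28 ± 0.60 with an unadjusted p of 8.34e-05 and an adjusted p of 0.0657, in a comparison where 0.0508% of all genes passed. With 1 array left out, it passed in 5 fits: without medium array 1 or 2, naive IL-7 array 1, or either naive array with both cytokines. In every other such fit it did not pass. Over the single omissions the difference ran from -3.97 to -2.59. The naive rise alone missed the threshold in 3 of the fits that left out 1 array, at up to 0.196. In memory cells with IL-7 the mean of 3.99 lies under the filter value of 4.06.

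Prnp and Treml2 encode proteins of the cell surface. The product of Prnp is the cellular prion protein, held on the membrane by a lipid anchor. Its values in naive cells were 10.16 and 10.19 with IL-4 and IL-7, 6.78 and 6.93 with IL-7, and 6.28 and 6.75 ex vivo. On the memory arrays it stood at 9.16 and 8.02 with IL-4 and IL-7, 8.90 and 7.93 with IL-4, 5.60 and 6.18 with IL-7, 6.04 and 5.91 in medium, and 6.08, 6.31, 5.96 and 6.29 ex vivo. All IL-4 arrays were above all others, and the naive IL-4 arrays were above the memory ones. Culture with IL-7 differed from ex vivo by 0.34 ± 0.35 (SE) in naive cells (adjusted p = 0.61, limma) and by -0.27 ± 0.30 in memory cells (adjusted p = 0.562).

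Treml2 encodes a receptor of the TREM family, found on T cells, B cells and myeloid cells. In naive cells its values were 11.03 and 10.44 with IL-4 and IL-7, 8.98 and 9.03 with IL-7, and 9.64 and 9.60 ex vivo. The memory values were 10.95 and 10.50 with IL-4 and IL-7, 10.72 and 10.38 with IL-4, 8.22 and 8.13 with IL-7, 8.13 and 9.25 in medium, and 9.90, 9.28, 10.09 and 9.41 ex vivo. The ex vivo arrays lay between the IL-4 arrays and the arrays cultured without IL-4 in both cell types, apart from the array labelled medium, replicate 2, which was just under the lowest ex vivo array. Treml2 changed by -1.5 ± 0.29 (SE) in memory cells with IL-7 against ex vivo (adjusted p = 0.00661, limma). The naive change of -0.62 ± 0.34 did not pass (adjusted p = 0.265) and passed with the naive groups fitted alone (adjusted p = 0.0484). In medium without the array labelled medium, replicate 2, the change was -1.54 (adjusted p = 0.0029).

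Frmd4b and Baiap3 act at membranes. Frmd4b encodes a scaffold with a FERM domain that binds cytohesins, the exchange factors of the small GTPase ARF6. Its values in naive cells were 10.31 and 10.42 with IL-4 and IL-7, 3.06 and 5.49 with IL-7, and 9.67 and 9.86 ex vivo. For memory cells the values were 11.12 and 10.84 with IL-4 and IL-7, 10.87 and 10.52 with IL-4, 4.22 and 3.81 with IL-7, 4.06 and 9.63 in medium, and 9.81, 9.96, 10.21 and 10.11 ex vivo. Frmd4b was thus high ex vivo, between 3.06 and 5.49 after culture with IL-7, near the filter value of 4.06, and its IL-4 arrays lay just above its ex vivo arrays. The fall against ex vivo was -5.49 ± 1.16 (SE) in naive cells with IL-7 (adjusted p = 0.00976, limma) and -6.01 ± 1.0 in memory cells (adjusted p = 0.00438). The single array that set it apart in medium was the one labelled medium, replicate 2: the change was -3.18 with it (adjusted p = 0.475) and -5.96 without it (adjusted p = 1.46e-05).

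Baiap3 encodes a MUNC13 relative with C2 domains that acts in the release of dense core vesicles. In naive cells its values were 9.49 and 8.87 with IL-4 and IL-7, 7.44 and 7.23 with IL-7, and 8.22 and 8.44 ex vivo. The memory arrays read 9.23 and 9.22 with IL-4 and IL-7, 9.01 and 9.11 with IL-4, 7.26 and 7.07 with IL-7, 7.39 and 7.90 in medium, and 8.25, 8.15, 8.27 and 8.41 ex vivo. The 3 states did not overlap in either cell type: with IL-4 was highest, ex vivo lay between, and culture without IL-4 was lowest. The fall against ex vivo was -0.99 ± 0.21 (SE) in naive cells with IL-7 (adjusted p = 0.0101, limma) and -1.11 ± 0.18 in memory cells (adjusted p = 0.00435). In medium it was -0.63 (adjusted p = 0.475), and -0.88 without the array labelled medium, replicate 2 (adjusted p = 0.0117).

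Spsb1 encodes an adaptor with a SPRY domain and a SOCS box, which brings substrates such as inducible nitric oxide synthase to a ubiquitin ligase. Its values in naive cells were 9.57 and 9.01 with IL-4 and IL-7, 5.85 and 6.23 with IL-7, and 8.71 and 9.41 ex vivo. Memory cells had values of 10.20 and 9.18 with IL-4 and IL-7, 9.97 and 9.24 with IL-4, 7.13 and 6.96 with IL-7, 6.99 and 9.84 in medium, and 8.45, 9.84, 9.19 and 9.18 ex vivo. The IL-4 arrays overlapped with the ex vivo arrays in both cell types, and the IL-7 arrays lay below them. Spsb1 fell against ex vivo by -3.02 ± 0.68 (SE) in naive cells with IL-7 (adjusted p = 0.0133, limma) and by -2.12 ± 0.59 in memory cells (adjusted p = 0.023). The change in medium was -0.75 (adjusted p = 0.678), and -2.17 without the array labelled medium, replicate 2 (adjusted p = 0.00539).

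Cbr3 and Ncoa7 act inside the cell. Cbr3 encodes a carbonyl reductase, an NADPH dependent enzyme that reduces ketones and quinones. Its values in naive cells were 10.65 and 9.70 with IL-4 and IL-7, 4.81 and 4.98 with IL-7, and 5.15 and 5.53 ex vivo. On the memory arrays it stood at 10.27 and 10.21 with IL-4 and IL-7, 10.12 and 10.05 with IL-4, 4.82 and 4.96 with IL-7, 4.88 and 5.73 in medium, and 5.64, 5.66, 5.75 and 5.62 ex vivo. Cbr3 was far lower wherever IL-4 was absent than with it, ex vivo included. Its IL-7 arrays lay below its ex vivo arrays in both cell types. That step was -0.78 ± 0.24 (SE) in memory cells with IL-7 (adjusted p = 0.0379, limma) and -0.45 ± 0.28 in naive cells (adjusted p = 0.35).

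Ncoa7 encodes a protein with a TLDc domain that binds nuclear receptors and the proton pump of vesicles, and a short form of it in humans is induced by interferon. Its values in naive cells were 12.13 and 12.09 with IL-4 and IL-7, 7.81 and 8.01 with IL-7, and 8.05 and 8.38 ex vivo. The memory values were 12.10 and 11.93 with IL-4 and IL-7, 12.11 and 12.40 with IL-4, 8.31 and 8.51 with IL-7, 8.49 and 7.03 in medium, and 7.81, 7.36, 7.79 and 8.08 ex vivo. The IL-4 arrays stood together near the top, and the memory IL-7 arrays lay above all 4 memory ex vivo arrays while the naive ones lay below both naive ex vivo arrays. The memory change was 0.65 ± 0.30 (SE) and missed the threshold (adjusted p = 0.143, limma), as did the naive change of -0.30 ± 0.35 (adjusted p = 0.658). Without either medium array the memory change passed (adjusted p = 0.0175 each). Without the array labelled medium, replicate 2, Ncoa7 was also higher in medium than ex vivo by 0.73 (adjusted p = 0.0494).

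Leaving out 1 array decided several of the calls in the fit to all 18 arrays. In memory cells with IL-7, each of the 6 falls missed the threshold without memory IL-7 array 1 or without memory IL-7 array 2, with Frmd4b at adjusted p values of 0.0526 and 0.0659 (limma) and Cbr3 at 0.22 and 0.147. Cbr3 missed it in 6 further fits, without any 1 of the 4 memory ex vivo arrays or of the 2 memory IL-4 arrays (0.0507 to 0.0697). Metrnl also missed it without memory ex vivo array 4 (0.0549) and Spsb1 without memory ex vivo array 2 (0.0551). The naive falls of Frmd4b, Baiap3 and Spsb1 missed it without naive ex vivo array 2, at 0.067, 0.086 and 0.105. They also missed it without naive IL-7 array 1 for Frmd4b (0.0835), without naive IL-7 array 2 for Baiap3 (0.103) and without either of them for Spsb1 (0.0732 and 0.0754). The naive rise of Metrnl missed it without naive ex vivo array 1 or 2 (0.0816 and 0.0773) and without naive IL-7 array 2 (0.196). Over the single omissions the Frmd4b fall ran from -6.21 to -5.81 in memory cells and from -6.70 to -4.28 in naive cells, and the naive Metrnl rise from 1.21 to 2.59. The array labelled medium, replicate 2, enters the spread that all comparisons share, and it was left out together with each other array in turn as a check chosen after seeing the data. In those 17 fits the memory falls of Frmd4b, Baiap3, Treml2 and Spsb1 and the naive changes of Frmd4b, Baiap3, Spsb1 and Metrnl passed each time. In medium, Frmd4b, Baiap3, Treml2 and Spsb1 passed in each of 16 such fits, whereas Metrnl passed in 4 and Ncoa7 in 3.

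Set against ex vivo cells, cells with IL-4 were higher for 8 of the 10 genes in each of the 3 comparisons. Of all genes, 14.8% passed in naive cells with IL-4 and IL-7 (8.90% higher), 20.7% in memory cells with IL-4 (12.2% higher) and 22.8% in memory cells with IL-4 and IL-7 (13.4% higher). These comparisons use the IL-4 arrays on which the genes were picked for high values, so nothing is read from the counts. The sizes divide the genes: Cbr3, Pros1, Ncoa7 and Tafa3 were higher than ex vivo by 3.89 to 5.12 on the log2 scale, Metrnl and Prnp by 2.26 to 3.66, and Baiap3 and Treml2 by 0.79 to 1.11. Frmd4b and Spsb1 did not pass, with differences of 0.60 and 0.23 in naive cells with IL-4 and IL-7 (adjusted p = 0.816 and 0.886, limma) and of 0.96 and 0.52 in memory cells with both cytokines (adjusted p = 0.566 and 0.596). With each array centred on its median, Treml2 missed the threshold in all 3 comparisons and Baiap3 in 2, at adjusted p values of 0.0539 to 0.128. With the compared naive groups fitted alone, both missed it in naive cells (Treml2 0.0763, Baiap3 0.15, limma). Leaving out 1 array, Treml2 missed it in 12 fits for memory cells with IL-4, 9 for naive cells and 2 for memory cells with both cytokines. Its difference then ran from 0.71 to 1.05, 0.82 to 1.41 and 0.83 to 1.28. Baiap3 missed it in 3 such fits for naive cells and 2 for memory cells with IL-4. These Treml2 values are of the probe set that stands for the gene. Its second probe set was higher by 1.33, 1.66 and 1.42 in naive cells, memory cells with IL-4 and memory cells with both. All 3 passed (adjusted p = 0.0287, 0.00358 and 0.00724, limma over all probe sets). Another was higher by 0.91, 1.13 and 1.13 in that order (adjusted p = 0.0251, 0.00308 and 0.00265).

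**Figure D3:**
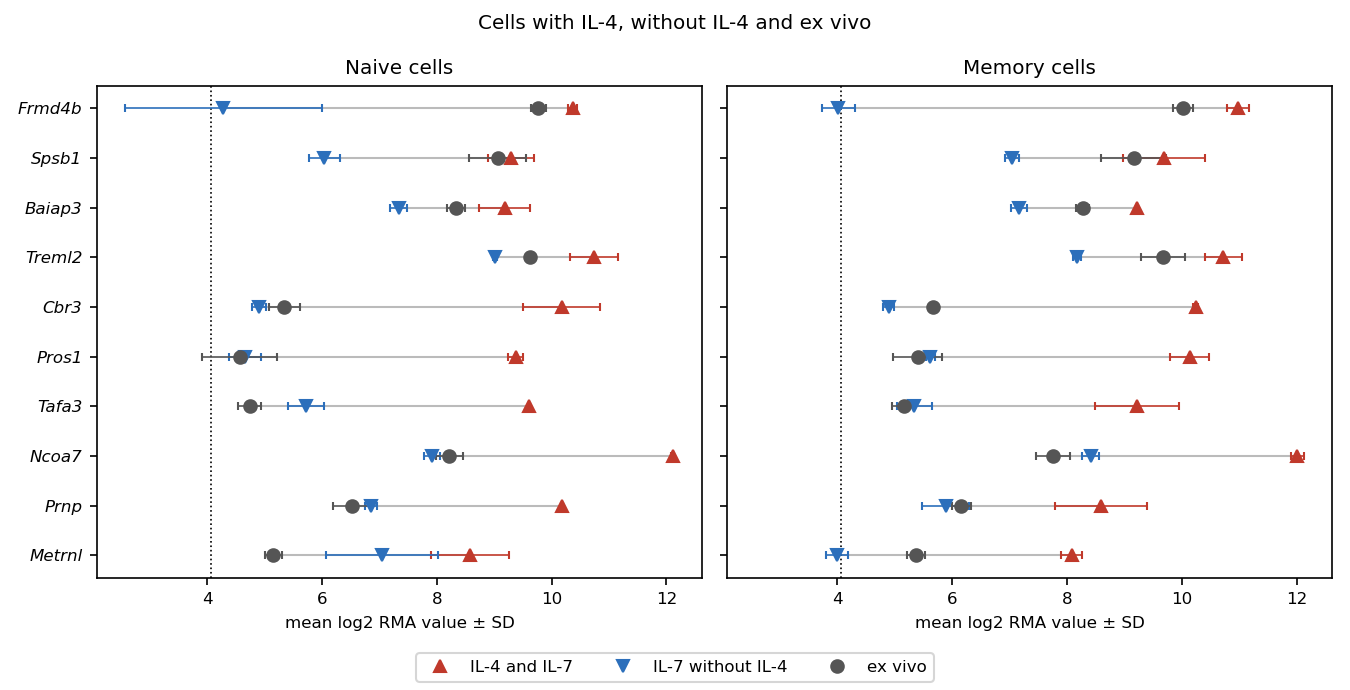
Mean log2 RMA value and SD of each gene with IL-4 and IL-7 (red), with IL-7 and no IL-4 (blue) and ex vivo (grey), for naive cells (left, 2 arrays a group) and memory cells (right, 2 arrays a cultured group and 4 ex vivo). The grey ex vivo mark of Frmd4b and Spsb1 sits beside the red one, and that of Pros1, Tafa3 and Ncoa7 beside the blue one. The dotted line is the filter value of 4.06.

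The rise with IL-4 on which the genes were picked can be split at the ex vivo level, as a description. Of the log2 rise with IL-4 over IL-7 alone, ex vivo cells already stood at 90.2% in naive and 86.3% in memory cells for Frmd4b, and at 93% and 80.2% for Spsb1. Baiap3 stood at 53.9% in naive and 53.7% in memory cells, and Treml2 at 35.8% and 58.6%. These shares are of the probe set that stands for each gene. Ex vivo, the other Treml2 probe sets that passed the filter lay nearer their IL-7 level. Its second probe set averaged 9.79 with IL-4 and IL-7, 8.33 with IL-7 and 8.46 ex vivo in naive cells. In memory cells it averaged 9.78, 7.53 and 8.36 in that order. Another averaged 6.08, 5.1 and 5.17 in naive and 6.21, 5.02 and 5.08 in memory cells. Cbr3 stood at 8.47% and 14.6%, and Metrnl at 33.7% in memory cells. For Pros1 and Tafa3 in both cell types, Prnp and Metrnl in naive cells and Ncoa7 in memory cells the ex vivo level was at or below the level with IL-7 alone. The rises themselves ran from 1.53 for Metrnl to 6.09 for Frmd4b in naive cells with IL-7, where 1.26% of all genes passed in the comparison of IL-4 with its absence. For memory cells given IL-7 they ran from 2.06 for Baiap3 to 6.97 for Frmd4b, where 1.81% of all genes passed. In memory cells without IL-7 they ran from 1.19 for Spsb1 to 5.16 for Pros1, where 1.94% passed, and the array labelled medium, replicate 2, enters here. Without it the rise was 2.61 for Spsb1 and 6.63 for Frmd4b, against 1.19 and 3.85 with it.

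Adding IL-7 did not move the genes by a change that passed the test. In memory cells with IL-4, IL-7 and IL-4 against IL-4 alone gave 0 of the 10 genes and 0% of all genes by limma, with 286 genes at an unadjusted p under 0.05. The differences ran from -0.38 for Pros1 to 0.28 for Frmd4b. Without IL-4, IL-7 against medium gave 0 of the 10 and 0% of all genes, with 804 genes at an unadjusted p under 0.05. Without the array labelled medium, replicate 2, the counts were again 0. With that array as the only one in medium, 6 of the 10 genes and 2250 of all genes passed, Frmd4b with a difference of -5.62 (adjusted p = 5.49e-05).

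Ex vivo, memory cells were not shown to differ from naive cells in any of the 10 genes by limma, where 1.93% of all genes passed. Pros1 had the largest difference, 0.84 ± 0.28 (SE, adjusted p = 0.157), and the only unadjusted p under 0.05. Its 4 memory arrays averaged 5.40 ± 0.43 and its 2 naive arrays 4.56 ± 0.65 (SD), and the groups overlapped. Frmd4b differed by 0.26 ± 1.0, Spsb1 by 0.11 ± 0.59, Baiap3 by -0.05 ± 0.18 and Treml2 by 0.05 ± 0.29. The number of arrays leaves wide room for Frmd4b, whose 95% interval ran from -1.89 to 2.41. In the fit to all 18 arrays the culture effects were not shown to differ between memory and naive cells. Besides that of Metrnl, given above, the difference, memory minus naive, was 0.95 ± 0.46 for Ncoa7 (adjusted p = 0.495) and -0.52 ± 1.53 for Frmd4b (adjusted p = 0.926).

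Of the 10 genes, 6 have more than 1 probe set, and these did not all behave alike. A second probe set of Frmd4b followed the first: it fell by -3.63 in naive cells with IL-7 (adjusted p = 0.0142, limma over all probe sets) and by -3.94 in memory cells (adjusted p = 0.00466). Another lay near the filter value and changed by -0.81 and -0.97, which did not pass, 1 more changed by -0.18 and -0.09 without passing, and the last did not pass the filter. Spsb1 had a second probe set that was flat in naive cells at -0.01 (adjusted p = 0.98) and fell by -0.71 in memory cells (adjusted p = 0.0236). Its other 2 changed by -0.47 to -1.06 without passing. For Treml2 the second probe set changed by -0.13 in naive and -0.83 in memory cells (adjusted p = 0.876 and 0.0768) and another by -0.07 and -0.06 (adjusted p = 0.898 and 0.868), so its fall rests on 1 probe set. Its last probe set did not pass the filter. Both probe sets of Prnp had their 3 IL-4 groups above all other groups, with naive cells highest. The further probe sets of Metrnl and Ncoa7 did not pass the filter. Pros1, Tafa3, Baiap3 and Cbr3 have 1 probe set each.

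**Figure D4:**
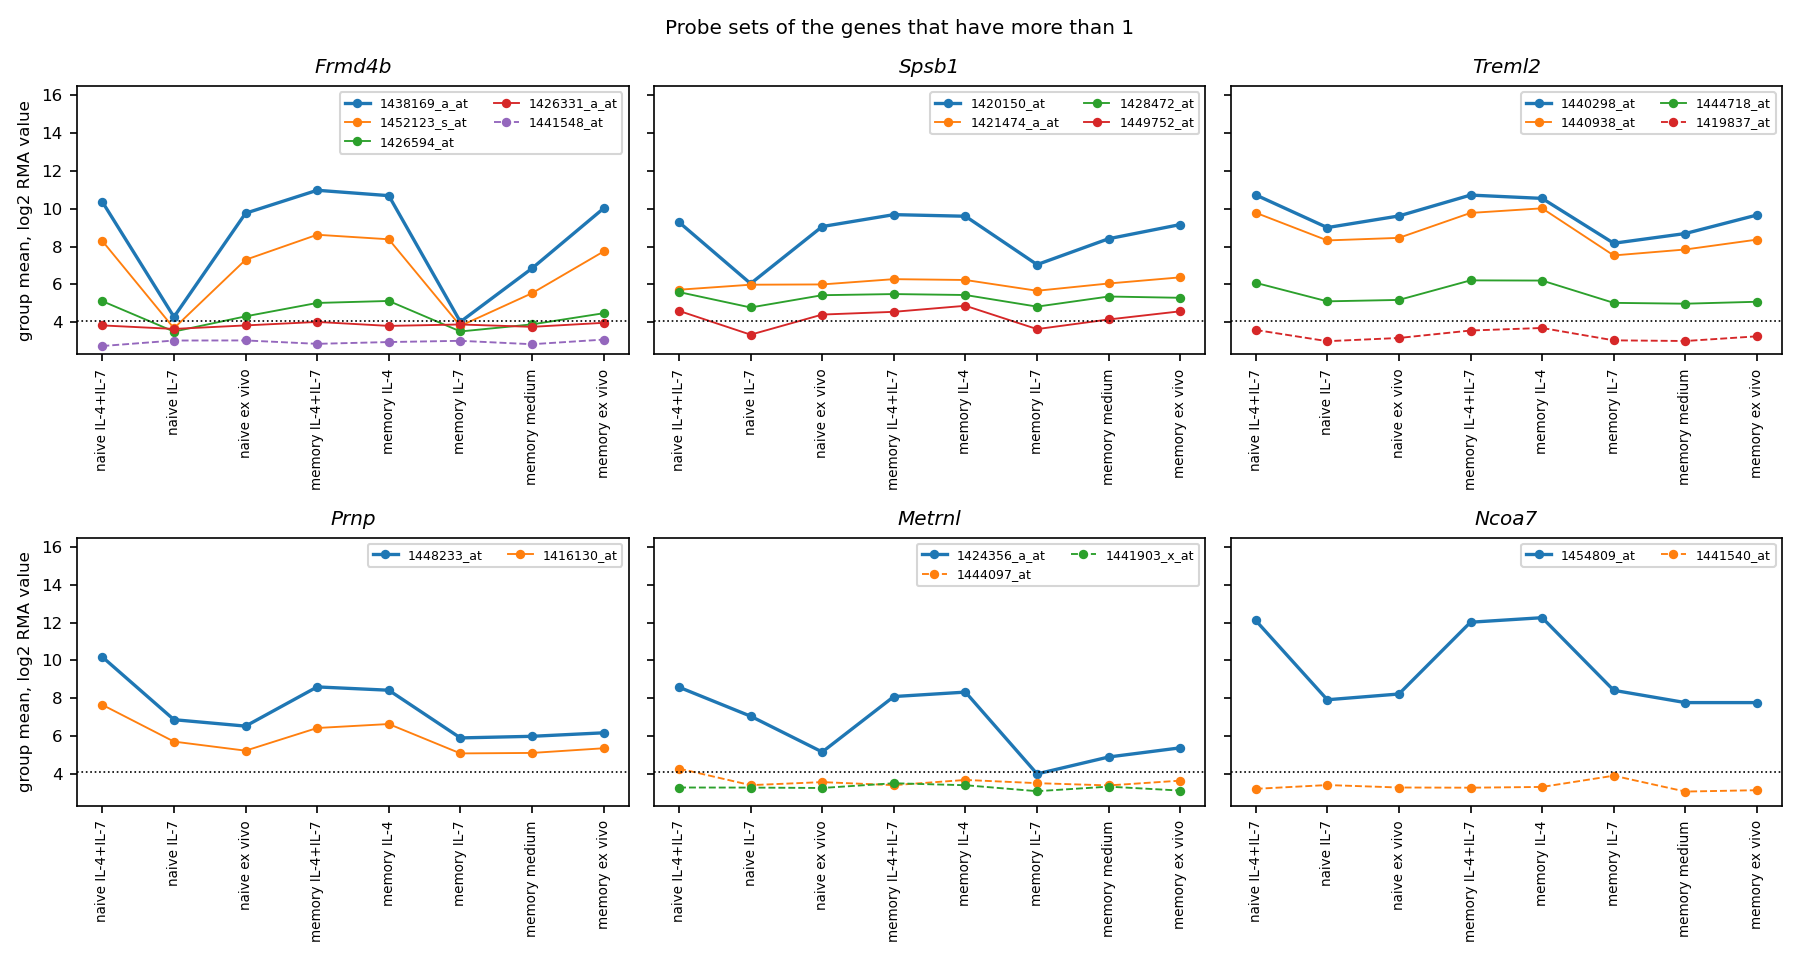
Group means (log2 RMA) of every probe set of the 6 genes with more than 1. The thick line is the probe set that stands for the gene, dashed lines are probe sets that did not pass the filter, and the dotted line is the filter value of 4.06. Lines join groups for reading only, and the memory medium mean includes the array labelled medium, replicate 2. In Frmd4b, 2 probe sets dip together with IL-7, while in Spsb1 the second one stays near 6.

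Correlations across the 18 arrays are given here as descriptions over arrays of the same 8 groups. The IL-4 rise for which the genes were picked enters each of them, and none was computed with that rise removed. Cbr3, Pros1, Ncoa7 and Tafa3 correlated at 0.96 to 0.97 with one another. Frmd4b correlated at 0.93 with Spsb1 and at 0.45 with Ncoa7 and Tafa3, and Baiap3 at 0.95 with Treml2. Outside the 10, the gene most alike in pattern was Slc2a6, a sugar transporter, for Cbr3 (0.975) and Ncoa7 (0.976), and H2-DMa, a chaperone of MHC class II peptide loading, for Pros1 (0.963) and Tafa3 (0.981). Dusp10, a phosphatase of stress-activated kinases, was most alike for both Frmd4b (0.951) and Spsb1 (0.914). Metrnl was most like Agpat3 (0.949), Prnp like Wdr59 (0.948), Baiap3 like Tbcd (0.955) and Treml2 like Fchsd2 (0.947).

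Other genes known to respond to IL-4 and STAT6 were listed beside the 10. Of 24 listed genes, 20 were tested. In naive cells with IL-7 against ex vivo, 4 were higher and 4 lower, with a median change of -0.03, where 7.00% of all genes were higher and 5.80% lower. In memory cells with IL-7, 0 were higher and 5 lower, with a median of -0.31, where 11.1% of all genes were higher and 8.85% lower. With IL-4 against ex vivo, 8 were higher and 1 lower in naive cells, and 7 were higher and 1 lower in memory cells with IL-4 or with both cytokines. Of all genes, 8.90% were higher in naive cells, 12.2% in memory cells with IL-4 and 13.4% with both. In the same order, 806, 1171 and 1291 of the 13770 genes were lower. The list was drawn up with earlier results of these data known, so nothing is read from its counts. Slc2a6 behaved like Cbr3, higher than ex vivo by 4.70 in naive and 4.24 in memory cells with both cytokines (adjusted p = 2.72e-07 and 1.55e-07, limma). Nfil3, a transcription factor, fell in memory cells with IL-7 by -3.82 against ex vivo (adjusted p = 0.00485) and stayed lower with both cytokines at -2.33 (adjusted p = 0.0221), unlike Frmd4b. Il2ra, the alpha chain of the IL-2 receptor, was higher with IL-4 and IL-7 than ex vivo by 2.81 in naive and 2.76 in memory cells (adjusted p = 0.0446 and 0.0178). In naive cells it was also higher with IL-7 alone (2.90, adjusted p = 0.0438): its mean was 6.36 with IL-4 and IL-7, 6.44 with IL-7 and 3.55 ex vivo. In memory cells its mean was 8.27 with IL-4 and IL-7, 4.35 with IL-7 and 5.50 ex vivo.

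Families and partners of the 10 genes are given by count, where 12.8% of all genes passed with IL-7 against ex vivo in naive cells and 19.9% in memory cells. With so few genes in each list, the counts are not set apart from these shares. Of 8 tested relatives and ligase partners of Spsb1, 0 passed with IL-7 against ex vivo in either cell type. Frmd4a, the closest relative of Frmd4b, was lower than ex vivo in naive cells with IL-7 by -1.57 (adjusted p = 0.0214, limma) and, unlike Frmd4b, lower with both cytokines by -2.18 (adjusted p = 0.00343). Of 8 tested MUNC13 relatives and exocytosis partners of Baiap3, 0 passed in naive cells, and 1 was higher and 1 lower in memory cells with IL-7. Of 9 tested TLDc proteins and coactivators related to Ncoa7, 1 was higher and 1 lower in each cell type, Tbc1d24 being higher by 2.27 in naive and 2.02 in memory cells (adjusted p = 0.0314 and 0.0204). Of 7 tested genes of the TREM family, its adaptors and Cd276, 0 passed in naive cells and 2 were lower in memory cells. Whether Treml2 uses these adaptors was not measured. The 2 lower genes were the adaptors Tyrobp at -1.24 and Hcst at -1.0. Of 3 tested genes listed with protein S, which were Gas6, Tyro3 and Axl, Axl was lower by -0.82 in memory cells with IL-7 (adjusted p = 0.0115). Axl is a receptor kinase, but not one of those named above as receptors of protein S. Its memory mean was 4.13 ex vivo, just above the filter value, and 3.31 with IL-7, below it. Of 3 tested carbonyl reductases and 2 tested relatives of Metrnl, 0 passed in either cell type.

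Markers of other cells moved in part with the culture comparisons. The B cell markers (5 of 6 on the array) averaged 4.76 to 4.85 on memory IL-7 arrays and 4.97 to 5.53 on memory ex vivo arrays, with 3 and 5 of them above the filter value. They did not move together. Cd79b, the highest of them, was higher with IL-7 (8.39, and 7.76 ex vivo). Ms4a1 (3.42 and 4.85), Cd79a (4.26 and 4.95), Blnk (3.43 and 4.07) and Pax5 (4.53 and 4.74) were lower. MHC class II markers (6 of 7 on the array) averaged 5.58 to 5.84 with IL-7 and 6.2 to 7.17 ex vivo. Myeloid markers (8 of 8) in memory cells averaged 4.57 to 4.76 with IL-7 and 4.68 to 4.93 ex vivo, which overlap. Among them Cd68 was at 5.40 with IL-7 and 6.56 ex vivo. Lyz2 (4.38 and 4.57), Itgam (2.93 and 3.13), Adgre1 (4.17 and 4.20) and Spi1 (4.20 and 4.25) were also lower with IL-7. Fcgr3 (5.74 and 5.40), Csf1r (5.84 and 5.81) and Cd14 (4.65 and 4.63) were higher. In naive cells the MHC class II markers moved the other way, 5.75 to 6.09 with IL-7 and 5.67 to 5.70 ex vivo, and the B cell markers were 4.59 to 4.64 with IL-7 and 4.49 to 4.50 ex vivo. Within that class II list, H2-Aa was lower in naive cells, 3.62 with IL-7 and 4.12 ex vivo. Of the B cell markers in naive cells, Ms4a1 (3.16 with IL-7 and 3.30 ex vivo) and Cd79a (3.91 and 4.22) were lower, and the others higher. Myeloid markers in naive cells were 4.46 to 4.56 with IL-7 and 4.54 to 4.64 ex vivo, and they did not move together. Cd68 was at 5.39 with IL-7 and 6.35 ex vivo, Fcgr3 at 4.51 and 5.50, and Lyz2 at 4.35 and 4.37. The others were higher with IL-7 than ex vivo: Csf1r (5.88 and 5.56), Adgre1 (4.12 and 3.77), Itgam (3.18 and 2.95), Cd14 (4.46 and 4.38) and Spi1 (4.19 and 3.84). Red cell precursor markers (2 of 4 on the array) were 3.78 to 4.08 with IL-7 and 4.59 to 4.70 ex vivo in naive cells. In memory cells they were 5.2 to 6.69 with IL-7 and 5.64 to 7.44 ex vivo, which overlap. The part of other cells in the changes of the 10 genes was not tested in either cell type.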

How the data were processed

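Expression was measured on 18 arrays of mouse CD8 T cells in 8 groups taken from the labels. The deposited values are log2 RMA values, 1 per probe set and array, made by the authors with RMA, per the submitters' processing notes, which name RMA and limma with no version. Background correction and quantile normalisation belong to RMA, and how far they compress low values was not measured here. The array annotation gave 34958 of 45101 probe sets 1 symbol, 932 several and 9211 none. Each gene was represented by its brightest probe set on average, giving 18194 genes. Genes entered the test if at least 2 arrays exceeded 4.06, the 40th percentile over the whole table; 13770 did. limma 3.58.1 (under R 4.3.3) fitted a single linear model of the 8 groups, and contrasts of group means were tested on both sides. The moderated variances had 10 residual degrees of freedom and a prior worth 4.13. P-values were adjusted by Benjamini and Hochberg's method over all 13770 genes, at a threshold of 0.05. The comparisons were cultured against ex vivo cells, memory against naive cells ex vivo, IL-7 against none, and IL-4 against none, the last as a description for the 10 genes.

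The 10 genes and all lists were chosen with earlier results of these data known. All 10 genes are named, with every probe set, and of each list of relatives at most 3 genes that passed, by size of change. For each of the 10, the gene with the highest Pearson correlation over the 18 arrays is named. Motifs were searched in RefSeq promoters (GRCm38.p6) with Python 3.11.15. Alternatives were no filter, the mean of or every probe set, trend and robust settings, median centring, a replicate block, only the groups compared, and leaving out each array. The model was tried on simulated data drawn from the genes' means and spreads, with 13770 genes in the fit. For memory cells with IL-7 against ex vivo it found 72% of simulated 1-unit and 98% of 2-unit log2 falls. The shares were 58% and 94% in naive cells, and 66% and 100% in medium, where 0 genes passed in the data. Only 50 genes fell at each size, far fewer than passed with IL-7, and the noise was independent between genes. The rates therefore do not give the sensitivity of these data. Replicate numbers were not treated as pairs, since no label says what they mark and differences between arrays 1 and 2 correlated from -0.13 to 0.51 between groups of the same cell type. Precision is limited by the few arrays per group.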

Additional observations from a re-analysis of the deposited data

Results flagged for a closer look

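Metrnl moved in opposite directions in the 2 cell types. Both memory IL-7 arrays lay below every memory ex vivo array and both naive IL-7 arrays lay above every naive ex vivo array, and the difference between the culture effects, memory minus naive, was -3.28 on the log2 scale (adjusted p = 0.0657, limma). Ncoa7 did so in the reverse sense, with both memory IL-7 arrays above and both naive IL-7 arrays below the ex vivo arrays of their cell type, and a difference of 0.95 (adjusted p = 0.495). The test of the difference did not pass for either gene in the fit to all 18 arrays. For Metrnl it passed in 5 of the fits that left out 1 array and in none of the others, and the difference ran from -3.97 to -2.59.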

How the results depend on the processing

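The values of the 10 genes under the other settings were compared with those of the main fit. Of them, 3108 stayed on the same side of the threshold or, for the untested IL-4 rises, kept their direction within the spread. A further 71 no longer passed, 26 newly passed, 43 IL-4 rises moved beyond the spread and 2 values were counted as reversed. In 39 cases the sign changed, 38 of them for a value that passed in neither fit, and these 38 are among the 3108. The 2 reversals came with a medium array left out: Ncoa7 in medium against ex vivo ran from -0.73 to 0.84 over the fits with arrays left out (0.73 without the array labelled medium, replicate 2), and the IL-4 rise of Spsb1 in memory cells without IL-7 from -0.24 to 2.61. Numbers of genes passing against ex vivo, with each array left out in turn, ran from 258 to 2772 for naive cells with IL-7, 3 to 3707 for memory cells with IL-7, 0 to 2257 for medium, 699 to 2991 for naive cells with both cytokines, 819 to 3652 for memory cells with IL-4 and 864 to 3854 with both. They ran from 112 to 605 for memory against naive cells ex vivo, 0 to 2250 for IL-7 against medium, 2 to 127 for the difference of culture effects, 76 to 538 and 73 to 2364 for the IL-4 rise of memory cells with and without IL-7, and 50 to 672 in naive cells. The 10 genes lost in culture numbered 0 to 3 in naive cells, 0 to 6 in memory cells with IL-7 and 0 to 5 in medium. Testing every probe set, a larger family, gave 2752 calls against ex vivo for naive and 4769 for memory cells with IL-7, 3244 for naive and 5065 for memory cells with both cytokines, 4570 for memory cells with IL-4, and 412 for the IL-4 rise of memory cells given IL-7. The mean of probe sets gave 16 genes for the difference of culture effects. Fitting only the groups compared gave 145 there, 677 for naive cells with both cytokines against ex vivo, and 1035, 9 and 29 for the IL-4 rise of memory cells with IL-7, without it and of naive cells. The cause was not tested for these.

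With the replicate number as a block, which the labels do not define as a pairing, 1446, 1722 and 1958 genes passed against ex vivo in memory cells with IL-7, IL-4 and both, and 4 for the difference of culture effects. Cbr3 and Spsb1 then missed the threshold in memory cells with IL-7 (adjusted p = 0.123 and 0.0809, limma), and Treml2 missed it with IL-4 against ex vivo in naive cells with both cytokines and in memory cells with IL-4 (0.0521 and 0.0862). With 2 arrays in most groups, and 1 of 2 in medium against its label, small changes of these genes could not be shown. No background was measured for values near 4.06. No other cell population was measured.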
